A study of Mus musculus with 60 samples.

Results

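Nuclear transfer (NT) embryos of the 2-cell stage were compared with in vivo embryos of the same stage, gene by gene, on the autosomes (chromosomes 1 to 19). The comparison used 9 of the 60 RNA-seq libraries of the series: 3 in vivo, 3 NTC (cumulus cell donor) and 3 NTM (mouse embryonic fibroblast, MEF, donor), each made from 1 embryo. The 6 NT libraries formed 1 group. The rule selects libraries and not genes, and of the 27238 genes in the table, 11824 passed the filter on low values (an average of 0.5 RPKM, reads scaled to transcript length and library size, or more over these embryos) and 11305 of these were autosomal.

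In vivo embryos came from superovulated C57BL/6 females mated with DBA2 males. The NT embryos were built from oocytes of superovulated BDF1 females (the F1 of the same cross), whose spindle had been removed and replaced by the nucleus of a BDF1 cumulus cell (CC) or of a BDF1 MEF from mid-gestation fetuses at a low passage. The MEFs were cultured and held in low serum before transfer, and the cumulus cells were stored cold after collection. The NT embryos were activated with strontium chloride and cytochalasin B with the deacetylase inhibitor Scriptaid, then cultured in vitro. The in vivo embryos had none of these steps. The genotype of the female that made the oocyte, the activation, the drug, the culture and the transfer itself all differ between NT and in vivo embryos, and their parts in any difference cannot be told apart. The hours after fertilisation or activation are not given in the sources used here. Each library is a single whole embryo, so fewer cells with a transcript and less transcript per cell cannot be told apart either.

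A mouse embryo of this age lives on RNA that the oocyte stored, while its own genome is switched on in a minor and then a major wave. The minor wave includes Dux, a double homeobox factor (listed as Duxf3), and the genes that it activates, among them the Zscan4 family of SCAN-domain zinc finger proteins, many of which are transcribed in a short burst and then fall silent. Embryos made by nuclear transfer have to start this programme from a somatic nucleus.

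Of the 11305 autosomal genes tested, 34 (0.301%) were called, with the adjusted p below 0.05 and an at least 2-fold change in either direction (limma on log2(RPKM + 1), Benjamini-Hochberg over all genes tested). Of these, 17 (0.150% of the genes tested) were higher in NT embryos and 17 (0.150%) were lower. In each of the 34 genes the 6 NT values and the 3 in vivo values did not overlap, which held for 5.33% of all genes tested. At an unadjusted p under 0.05, 3.82% of the genes were higher in NT embryos and 6.67% lower, and the median log2 fold change over all of them was 0.03. A single fit over all 20 groups of the series called 1002 genes, 370 higher and 632 lower. Without in vivo replicate 2 only 9 genes were called, and without in vivo replicate 1 there were 55. Without NTC replicate 1 the count was 19, without NTC replicate 3 it was 14, and without NTM replicate 1 or 2 it was 20 or 18.

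**Figure D1:**
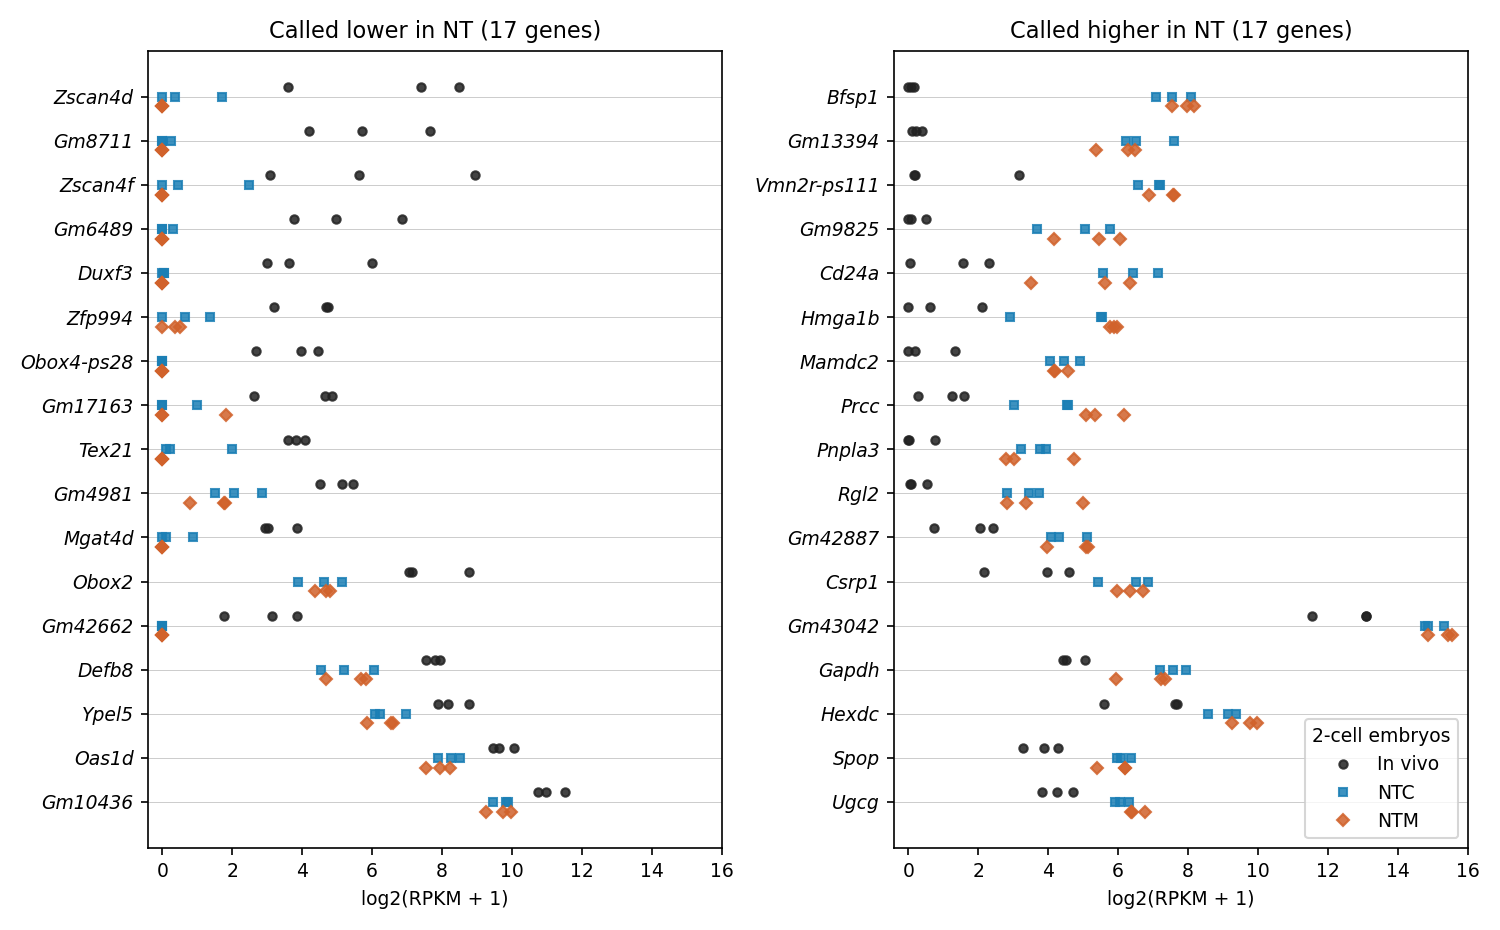
Each row is a called gene and each point 1 library, on a log2(RPKM + 1) scale. Left, the 17 genes lower in NT embryos, several of which are at 0 in all NTM libraries. Right, the 17 genes higher in NT embryos, where Bfsp1 stays under 1 RPKM in vivo and lies between 135 and 287 RPKM in the 6 NT libraries.

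The genes that fell included Zscan4d, which had the largest fall of the 34, Zscan4f and Duxf3. Zscan4d (chr7:11161374-11166159, minus strand, GRCm38) had 11.1, 168 and 355 RPKM in the in vivo embryos, 2.29, 0.292 and 0 RPKM in the NTC embryos, and 0 in all 3 NTM embryos. Zscan4f (chr7:11397915-11402318, plus strand) had 7.49, 48.2 and 493 RPKM in vivo, 4.63, 0.379 and 0 in NTC, and 0 in all 3 NTM embryos. In both genes the lowest in vivo embryo lay above the highest NT embryo, and that NT embryo was NTC replicate 1. The log2 fold changes were -6.14 ± 0.89 (SE; adjusted p = 0.00744, limma) for Zscan4d and -5.39 ± 1.02 (adjusted p = 0.0386, limma) for Zscan4f. The call of Zscan4d was lost only without in vivo replicate 2 (adjusted p = 0.0757, limma), and that of Zscan4f in 7 of the 9 fits without 1 library (adjusted p up to 0.167, limma). The copies are close relatives: 80.6% of the 100-base windows of the Zscan4f transcripts occur in transcripts of other genes and 29.6% of those of Zscan4d, so reads could be assigned to the wrong copy or dropped. The sum over Zscan4b to Zscan4f, which depends less on that assignment, was 25.3, 264 and 1140 RPKM in vivo, 22.1, 0.816 and 1.23 in NTC and 0 in every NTM embryo.

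The promoters of the called Zscan4 genes and of Obox2 are shown because they hold the same short motif. They run from 250 bases before to 50 bases after the RefSeq start (GRCm38.p6), 5′ to 3′ on the gene's strand, and capitals mark matches to AAGGTCA (here read on the other strand) and to TATAAA. The Zscan4d promoter is chr7:11166099-11166398 on the minus strand, that of Zscan4f is chr7:11397665-11397964 on the plus strand, and that of Obox2 is chr7:15388601-15388900 on the plus strand.
Zscan4d: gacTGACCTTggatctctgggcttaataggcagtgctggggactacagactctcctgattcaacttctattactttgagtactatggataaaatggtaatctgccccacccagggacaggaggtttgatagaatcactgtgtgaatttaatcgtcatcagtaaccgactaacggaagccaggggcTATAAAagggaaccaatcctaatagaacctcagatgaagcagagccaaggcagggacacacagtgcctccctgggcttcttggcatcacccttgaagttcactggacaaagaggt
Zscan4f: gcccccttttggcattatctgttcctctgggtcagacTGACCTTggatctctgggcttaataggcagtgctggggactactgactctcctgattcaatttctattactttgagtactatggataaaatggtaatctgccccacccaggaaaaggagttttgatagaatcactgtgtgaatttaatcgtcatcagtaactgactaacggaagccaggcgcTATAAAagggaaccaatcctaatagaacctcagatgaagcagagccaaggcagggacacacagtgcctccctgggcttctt
Obox2: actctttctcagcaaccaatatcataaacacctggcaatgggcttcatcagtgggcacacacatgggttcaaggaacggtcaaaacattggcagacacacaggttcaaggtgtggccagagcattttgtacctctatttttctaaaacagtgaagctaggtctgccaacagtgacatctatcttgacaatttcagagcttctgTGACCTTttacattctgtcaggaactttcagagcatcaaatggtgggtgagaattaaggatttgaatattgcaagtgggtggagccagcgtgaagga

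Shifted by 34 bases, the Zscan4d and Zscan4f promoters were identical at 259 of 266 bases (97.4%). AAGGTCA is the core that the nuclear receptor Nr5a2 binds. It was found, on either strand, in the promoters of 4 of the 10 lower genes with a RefSeq promoter (Zscan4d, Zscan4f, Obox2 and Defb8), in those of 0 of 10 higher genes, and in 4.72% of all 32851 promoters of that length. TATAAA, the TATA box, was in the promoters of Zscan4d and Zscan4f among the lower genes and of Hexdc among the higher, and in 13.6% of all promoters. GGATTA, the core of Obox and Crx homeobox factors, was in none of these 20 promoters and in 7.06% of all.

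Duxf3 (chr10:58229979-58232675, minus strand), the gene of Dux itself, had 11.4, 63.1 and 6.93 RPKM in vivo. It was at 0.0314 and 0.0310 RPKM in 2 NTC embryos and at 0 in the other 4 NT embryos. Windows found in other genes made up 24.2% of its transcript. All in vivo embryos lay above all NT embryos, and the embryo with the most Duxf3 (replicate 2) was not the one with the most Zscan4 (replicate 3). The log2 fold change was -4.19 ± 0.67 (SE; adjusted p = 0.0154, limma), and without in vivo replicate 2 the adjusted p (limma) was 0.0515. Gm4981, which lies 2173 bases from Duxf3 on the same strand, fell as well, from 21.7, 42.9 and 33.9 RPKM in vivo to between 0.745 and 6.26 RPKM in the NT embryos, with a log2 fold change of -3.23 ± 0.57 (adjusted p = 0.0271, limma).

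A pair of homeobox loci of the oocyte (Obox) cluster on chromosome 7 fell too. Obox2, an oocyte-specific homeobox gene counted among the stored maternal transcripts, had 139, 438 and 133 RPKM in vivo. It had 34.6, 13.6 and 23.5 RPKM in NTC embryos, while the NTM embryos had 19.7, 24.8 and 27.03. The NT embryos formed a narrow band under the in vivo embryos, with a log2 fold change of -3.07 ± 0.47 (adjusted p = 0.0102, limma). Without in vivo replicate 2 its adjusted p (limma) was 0.0756. Obox2 shares 47.2% of its windows with Obox1, whose own log2 fold change was -1.49 ± 0.41 (adjusted p = 0.194, limma). The pseudogene Obox4-ps28 had 5.402, 14.8 and 20.8 RPKM in vivo and 0 in all 6 NT embryos, at least 32.8-fold lower in NT against a floor of 3 reads in the NT library where 3 reads weigh most. Each of its windows also occurs in other Obox4 copies, so this level cannot be placed on 1 copy.

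Among the other genes that fell, 3 pseudogenes were absent or nearly absent from NT embryos. Gm8711 had 17.2, 51.7 and 202 RPKM in vivo and at most 0.190 in NT, with a log2 fold change of -5.81 ± 0.70 (adjusted p = 0.00196, limma). Gm6489 had 12.6, 30.2 and 116 RPKM in vivo and at most 0.243 in NT, with a log2 fold change of -5.15 ± 0.68. Gm42662 had 2.40, 7.80 and 13.4 RPKM in vivo and 0 in all NT embryos, at least 19.9-fold lower by the same floor. As with Zscan4, in vivo replicate 3 had the highest and replicate 1 the lowest value in all 3. Other genes hold 75.1% of the windows of Gm8711 and 55.2% of those of Gm42662, so their reads may come from other copies. Gm8711 and Gm6489 were called whichever single library was left out, and Gm42662 was called in 1 of the 9 fits that left out a library.

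Tex21, Mgat4d, Zfp994 and Gm17163 fell too, and their in vivo levels varied less than those of Zscan4d and Zscan4f. Tex21, a testis-expressed gene, had 13.0, 16.1 and 11.1 RPKM in vivo and a median of 0.0397 RPKM in NT, where the highest embryo (NTC replicate 2) reached 2.98. Mgat4d, a relative of the N-acetylglucosaminyltransferases, had 7.11, 13.5 and 6.72 RPKM in vivo and at most 0.830 in NT. The zinc finger gene Zfp994 had 8.25, 25.7 and 24.7 RPKM in vivo and 0 to 1.56 in NT. Their log2 fold changes were -3.45 (Tex21), -3.11 (Mgat4d) and -3.73 (Zfp994). Of the 9 fits without 1 library, Tex21 was called in 2, Mgat4d in 4, Zfp994 in 6 and Gm17163 in 2. Gm17163, annotated as antisense to Ccdc13, had 5.22, 27.7 and 24.1 RPKM in vivo and 0 to 2.52 in NT, and since strand is not given for the counting, reads of Ccdc13 cannot be told apart from it.

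A further 4 genes that fell were above 20 RPKM in every embryo. Defb8, a beta-defensin, had 221, 186 and 246 RPKM in vivo and 22.1 to 65.6 RPKM in NT (median 42.8), a mean 5.13-fold lower. Ypel5, a subunit of the CTLH ubiquitin ligase, had 288, 440 and 235 RPKM in vivo and 57.4 to 125 in NT (median 83.2), a mean 3.77-fold lower. Oas1d, an oocyte-expressed member of the oligoadenylate synthetase family, had 787, 1069 and 704 RPKM in vivo and 185 to 363 in NT (median 270), a mean 3.15-fold lower. Gm10436 had 1725, 2932 and 2020 RPKM in vivo and 618 to 1001 in NT, a mean 2.64-fold lower. Unlike the Zscan4 genes, none of these was near 0 in any embryo. The adjusted p (limma) was 0.0250 for Defb8, 0.0389 for Ypel5, 0.0311 for Oas1d and 0.0407 for Gm10436, and each was lost in at least 5 of the 9 fits without 1 library. Median-ratio scaling also ended the calls of Ypel5, Oas1d and Gm10436. Other genes hold 35.5% of the windows of Gm10436, so part of its reads may come from other copies.

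The genes that rose were led by Bfsp1. Bfsp1 (chr2:143826528-143863173, minus strand), which encodes the lens filament protein filensin, had 0.112, 0.0602 and 0 RPKM in the in vivo embryos. The NTC embryos had 135, 184 and 272 RPKM, and the NTM embryos 287, 248 and 184. No other gene of the 34 had a larger change, with a log2 fold change of 7.65 ± 0.40 (SE; adjusted p = 1.53e-07, limma), and it was called without any single library. The donor cells had hardly any, with a mean of 0.00442 RPKM in CCs and 0.00662 in MEFs. No 100-base window of its transcripts occurs in another gene.

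Vmn2r-ps111, Mamdc2 and Cd24a were low in the in vivo embryos, at 7.98 RPKM or less. Vmn2r-ps111, a vomeronasal receptor pseudogene, had 7.98, 0.153 and 0.128 RPKM in vivo and 93.9 to 194 in NT (median 145.5), with a log2 fold change of 5.99 ± 0.60 (adjusted p = 0.0003, limma). Mamdc2, a secreted MAM-domain protein, had 0.145, 0 and 1.52 RPKM in vivo and 15.7 to 28.8 in NT (median 19.1). Cd24a, a GPI-anchored surface glycoprotein, had 0.0296, 1.98 and 3.90 RPKM in vivo, 141, 85.5 and 46.6 in the NTC embryos, and 80.7, 10.3 and 48.2 in the NTM embryos. Each window of Vmn2r-ps111 also occurs in other genes (96.5% of them in Vmn2r-ps110), so its level cannot be placed on this locus. In all 3 the lowest NT embryo stood above the highest in vivo embryo. The log2 fold change was 3.88 ± 0.52 for Mamdc2 (adjusted p = 0.00365, limma) and 4.47 ± 0.73 for Cd24a (adjusted p = 0.0160, limma). The call of Cd24a was lost without in vivo replicate 1 (adjusted p = 0.0511, limma) or replicate 2 (adjusted p = 0.0757, limma).

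Prcc, a nuclear protein with roles in splicing and mitotic control, had 2.00, 0.206 and 1.35 RPKM in vivo and 7.09 to 70.9 in NT (median 27.9). Rgl2, an exchange factor for Ral GTPases, had at most 0.441 RPKM in vivo and 6.00 to 30.9 in NT. Pnpla3, a lipid droplet protein, had at most 0.683 RPKM in vivo and 5.93 to 25.9 in NT. The log2 fold changes were 3.76 (Prcc), 3.32 (Rgl2) and 3.33 (Pnpla3). Their calls held in 5 (Prcc), 1 (Rgl2) and 3 (Pnpla3) of the 9 fits without 1 library.

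Several higher genes are near-copies of other genes. Gm13394, a processed pseudogene, shares 88.9% of its windows with Gapdh. It had 0.161, 0.0720 and 0.303 RPKM in vivo and 40.7 to 193 in NT, with a log2 fold change of 6.18 ± 0.50 (adjusted p = 2.62e-05, limma). Gapdh, the glycolytic enzyme glyceraldehyde-3-phosphate dehydrogenase, had 32.2, 21.8 and 20.4 RPKM in vivo, 245, 147 and 190 in the NTC embryos, and 161, 60.0 and 150 in the NTM embryos. Gapdh was thus 6.41-fold higher in mean RPKM, with a log2 fold change of 2.55 ± 0.44 (adjusted p = 0.0239, limma), and the call was lost in 4 of the 9 fits without 1 library (adjusted p up to 0.108, limma). Its direction was the same under the 3 scalings run (deposited values, median-ratio and nuclear genes alone). The donor cells had a mean of 2028 RPKM of Gapdh (CCs) and 852 RPKM (MEFs). Because the transcripts share windows, the reads of Gapdh and Gm13394 cannot be counted as separate evidence.

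Gm9825 shares 44.9% of its windows with Rnps1, and Hmga1b shares 78.8% with Hmga1, the high mobility group chromatin protein. Gm9825 had at most 0.431 RPKM in vivo and 11.8 to 66.0 in NT, while Rnps1 had 9.01 to 16.7 RPKM in vivo and 14.7 to 49.1 in NT. Hmga1b had 3.27, 0.531 and 0 RPKM in vivo, 6.46, 45.1 and 44.4 in NTC and 57.7, 53.5 and 62.1 in NTM, whereas Hmga1 had 89.6, 103 and 0.578 RPKM in vivo and 29.4 to 115 in NT. The copy was thus higher in NT embryos than in each in vivo embryo, and the Hmga1 values of the groups overlapped.

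The most abundant of the 34 was Gm43042, a lincRNA on chromosome 5 (chr5:59569702-59574242). It had 8778, 8747 and 2976 RPKM in vivo and 28161 to 47599 in NT, a mean 5.38-fold higher, with a log2 fold change of 2.56 ± 0.31 (adjusted p = 0.00196, limma). It alone made up 0.778 to 2.56% of the summed RPKM in vivo and 7.12 to 11.99% in NT embryos. Gm42887, which has 39.4% of its windows in Gm43042, had 4.37, 3.15 and 0.649 RPKM in vivo and 14.8 to 34.5 in NT. Hexdc, which encodes the glycosidase hexosaminidase D and holds 3.62% of its windows in Gm43042, had 198, 204 and 47.1 RPKM in vivo and 379 to 1012 in NT. Each of the windows of Gm42887 also occurs in other genes, so its level cannot be placed on this locus. Other genes hold 36.5% of the windows of Gm43042 and 9.36% of those of Hexdc, so part of their reads may come from other loci. Gm43042 was called in all 9 fits without 1 library, Hexdc in 2 and Gm42887 in 1.

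The last 3 of the higher genes were well expressed in both groups. Csrp1, a LIM-domain protein of the cytoskeleton, had 23.3, 14.5 and 3.53 RPKM in vivo and 41.7 to 115 in NT. Spop, the substrate adaptor of a cullin ubiquitin ligase, had 18.5, 13.8 and 8.68 RPKM in vivo and 40.8 to 81.6 in NT. Ugcg, the glucosylceramide synthase, had 18.2, 13.3 and 24.96 RPKM in vivo and 58.9 to 108 in NT. In mean RPKM they were 5.96-fold (Csrp1), 4.82-fold (Spop) and 4.22-fold (Ugcg) higher, and their adjusted p values (limma) were 0.0447, 0.0343 and 0.0386. Each lost its call in at least 6 of the 9 fits without 1 library.

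**Figure D2:**
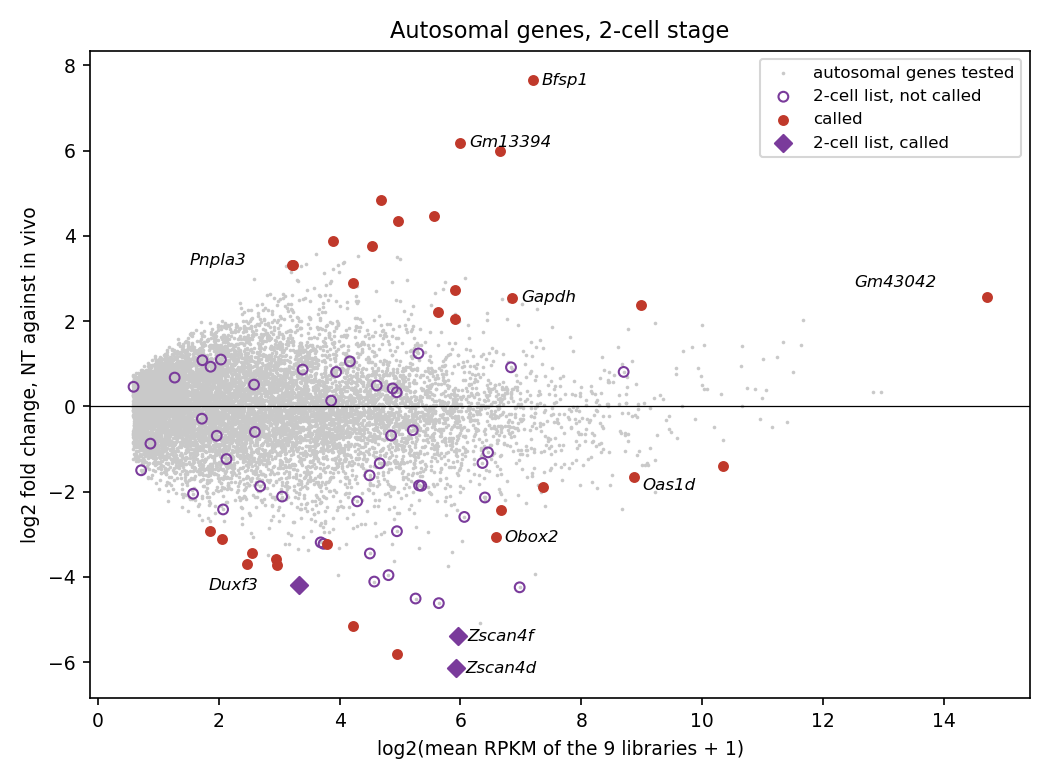
Log2 fold change of NT against in vivo 2-cell embryos (vertical) against the log2 mean RPKM of the 9 libraries (horizontal) for 11305 autosomal genes. Called genes are red, and the genes of the 2-cell list are purple, filled where called (Zscan4d, Zscan4f and Duxf3). Bfsp1 stands highest at 7.65 and Zscan4d lowest at -6.14.

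The NTC and NTM embryos were also compared with each other, which asks whether embryos of the 2 donor cells differed at this stage. Donor cell type and donor handling before transfer (low serum for MEFs, cold storage for CCs) cannot be told apart in this comparison. Of 11115 autosomal genes tested, 0 were called (0%) by limma, 740 had an unadjusted p under 0.05, and no adjusted p was below 0.223. No other tool was run on this pair, and in a single limma fit over all 20 groups of the series 494 genes were called. Without NTM replicate 1 there were 38 called genes, all lower in NTM, and without NTM replicate 2 there was 1. All 34 genes called in the pooled comparison had the same sign in NTC embryos alone and in NTM embryos alone, but both comparisons use the same in vivo libraries. Bfsp1 had a log2 fold change of 7.49 in NTC and 7.81 in NTM, Zscan4d of -5.80 and -6.49, Obox2 of -3.11 and -3.03, and Cd24a of 5.08 and 3.85. With 3 libraries on each side, 8 of the 34 were called in NTC and 10 in NTM.

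A list of genes with a burst at the 2-cell stage (Dux targets and others) was followed as a whole. It held 56 genes of the table, all autosomal, of which 49 were tested. Of these, 3 were called lower (Zscan4d, Zscan4f and Duxf3) and 0 higher, and 18 had an unadjusted p under 0.05 and were lower, against 0 higher. The median log2 fold change was -1.33, against 0.03 for all autosomal genes, and 9 of 49 did not overlap between the groups. Over all genes tested, 0.150% were called lower, 6.67% were lower at an unadjusted p under 0.05 and 5.33% did not overlap. The list was chosen with earlier results of these data known, so these counts are a description.

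The in vivo embryos differed widely in this list. Its summed level was 1186, 1485 and 6919 RPKM in the in vivo embryos, 1537, 925 and 1044 in NTC and 1038, 899 and 659 in NTM. In vivo replicate 3 alone stood apart, and NTC replicate 1 lay above the other 2 in vivo embryos. Of the 56 genes, 34 were highest in in vivo replicate 3 and 12 in an NT embryo. Without in vivo replicate 3 the median was -0.589, with 10 genes lower and 3 higher at an unadjusted p under 0.05 among 46 tested.

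Its members differed from each other. The 5 Zscan4 members of the table (Zscan4b to Zscan4f) had lower means in NT embryos, and Zscan4b and Zscan4e were at 0 in all 6 NT embryos, with 0.429 to 15.4 RPKM and 0.991 to 2.94 RPKM in vivo. Arg2, the mitochondrial arginase, had 76.6, 104 and 46.8 RPKM in vivo and 10.4 to 32.3 in NT, with no overlap (log2 fold change -1.85, adjusted p = 0.132, limma). Gm20767 had 3.90, 30.8 and 400.5 RPKM in vivo and at most 2.32 in NT (adjusted p = 0.0894, limma). Against these, Zfp352, a zinc finger gene of the same burst, had 12.01, 6.93 and 395 RPKM in vivo and 205, 168 and 108 in NTC and 83.4, 5.62 and 34.4 in NTM. Tcstv3 had 41.9, 76.2 and 319 RPKM in vivo and 16.4 to 106 in NT. Obox6 had 0.0400, 0 and 59.2 RPKM in vivo and 0.324 to 50.01 in NT. The Dux and Zscan4 members were thus at or near 0 in most NT embryos, while the ranges of Zfp352, Tcstv3 and Obox6 overlapped between the groups.

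Klf17 and Nr5a2, factors of the early embryo in the same list, did not pass the test. Klf17 had 749, 348.5 and 54.3 RPKM in vivo and 369 to 552 in NT. Nr5a2 had 3.61 to 4.18 RPKM in vivo and 0.0958 to 3.95 in NT.

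More of the list was at 0 in NTM than in NTC embryos. Of the 56 genes, 22 were at 0 in all 3 NTM embryos, 5 in all 3 NTC embryos and 2 in all 3 in vivo embryos. Among the 49 tested members these numbers were 17, 2 and 1, and of all autosomal genes tested 6.51%, 2.91% and 4.66% were at 0. Each NTM library had fewer genes above 0 (10084 to 12101) than each NTC library (12333 to 13520). Among the 41 members tested in the comparison of NTM with NTC, 12 were lower in NTM at an unadjusted p under 0.05 (5.63% of all autosomal genes) and 0 higher, and the median log2 fold change was -1.44, against -0.25 for all autosomal genes. Members at 0 in all 3 NTM embryos passed the filter through their NTC values alone and could only be lower in NTM. This favours a fall in NTM, so the count and the median are a description. The lowest adjusted p of a member was 0.223 (limma), so no single member was called.

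**Figure D3:**
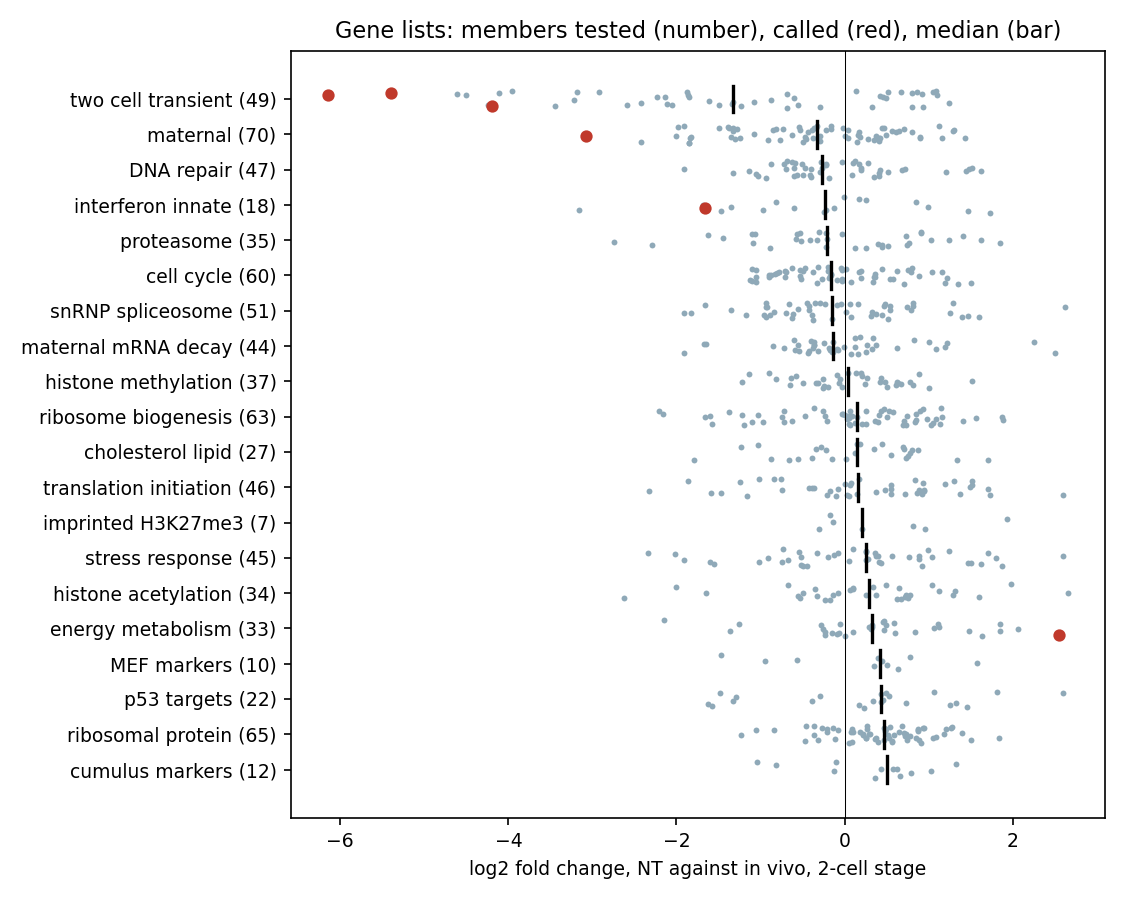
Log2 fold change of NT against in vivo 2-cell embryos for the members of 20 gene lists, 1 point a gene, with the number tested in brackets. Called genes are red and bars are medians, and the 2-cell list lies farthest to the left with a median of -1.33.

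Of 70 tested stored maternal transcripts, 1 was called (Obox2, lower), beside 0.301% of all genes. At an unadjusted p under 0.05, 8 were higher and 16 lower, beside 3.82% and 6.67% of all genes, and the median log2 fold change was -0.33. Bcl2l10, an oocyte Bcl2 family protein, had 5103, 5760 and 9555 RPKM in vivo and 6756 to 10849 in NT, and Dazl, an RNA-binding protein of germ cells, had 755, 831 and 210 RPKM in vivo, 202 to 318 in NTC and 63.5 to 102 in NTM (adjusted p = 0.227, limma). Of 44 tested genes of maternal mRNA decay 0 were called, with a median of -0.14, and Btg4, the adaptor of the deadenylase, had 4693 to 7100 RPKM in vivo and 4844 to 15246 in NT. The oocyte markers Bmp15, Zp2 and Npm2 were present in all 9 libraries (at least 40.3 RPKM), and Khdc3, another, was at 0 to 0.917 RPKM. Among 2-cell markers, Zscan4c, Zscan4d and Usp17lc were at 0 in all NTM embryos, while Zfp352 and Tcstv3 were above 5 RPKM in each of the 9 libraries.

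Interferon and nucleic acid sensing genes were tested in 18 cases, of which 1 was called (Oas1d, lower), beside 0.301% of all genes. The list's summed level was 1131 to 2091 RPKM in vivo and 623 to 882 RPKM in NT, without overlap, and the median log2 fold change of its genes was -0.23. Most of that sum lay in oocyte-expressed Oas1 genes. Oas1e had 634, 370 and 181 RPKM in vivo and 157 to 263 in NT (adjusted p = 0.471, limma). Oas1h had 180, 268 and 16.7 in vivo and 0.0948 to 42.9 in NT (adjusted p = 0.332, limma). The Oas1 genes did not all fall. Oas1c had 121, 106 and 45.2 RPKM in vivo and 55.1 to 184 in NT (log2 fold change 0.18, adjusted p = 0.897, limma).

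Glycolysis and other energy genes held 1 called gene of 33 tested (Gapdh, higher), beside 0.301% of all genes. Their median log2 fold change was 0.33. At an unadjusted p under 0.05, 6 were higher and 1 lower, beside 3.82% and 6.67% of all genes. With NTC embryos alone these numbers were 8 and 0 of 34 tested, and with NTM embryos alone 1 and 1 of 29. Aldoa, the aldolase, had 9.36, 0.689 and 2.52 RPKM in vivo and 10.7 to 20.8 in NT (adjusted p = 0.287, limma), and Pgam1, the phosphoglycerate mutase, had 3.70, 3.18 and 11.996 in vivo and 11.6 to 42.2 in NT (adjusted p = 0.260, limma). Ldhb, the lactate dehydrogenase subunit of the oocyte, was abundant in both groups, with 286 to 455 RPKM in vivo and 284 to 609 in NT (adjusted p = 0.756, limma).

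Ribosomal protein genes had a median log2 fold change of 0.47 over 65 tested genes, with 0 called. At an unadjusted p under 0.05, 5 were higher and 0 lower, beside 3.82% and 6.67% of all genes. Without in vivo replicate 1 the median was 0.168 (1 higher, 1 lower). It was 0.412 without replicate 2 (3 higher, 0 lower) and 0.635 without replicate 3 (9 higher, 1 lower). With NTM embryos alone 0 were higher and 1 lower, and with NTC embryos alone 5 and 0. The summed level was 1248, 2133 and 1927 RPKM in vivo and 2158 to 3101 RPKM in NT embryos, which did not overlap by a narrow margin. Rpl17 had 155.5 to 882 RPKM in vivo and 347 to 1797 in NT, and Rps2 66.7 to 282 in vivo and 101.5 to 336 in NT, and neither passed the test. Many of these genes have pseudogene copies, and their reads may be split.

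The translation initiation genes followed by the study were not called. The study named them from changes between the 1-cell and 2-cell stages within each embryo type, which is another contrast. Eif1ad had 11.2, 4.55 and 0.588 RPKM in vivo and 1.47 to 41.8 in NT (log2 fold change 1.49 ± 0.87, adjusted p = 0.560, limma). Eif3j2 had 0.971, 0.303 and 3.87 RPKM in vivo and 3.22 to 9.23 in NT (1.52 ± 0.62, adjusted p = 0.411, limma), and it shares 83.99% of its windows with Eif3j1. The X-linked Eif1ax had 39.2, 114 and 8.84 RPKM in vivo and 12.1 to 36.5 in NT (adjusted p = 0.776, limma). Over the translation initiation list, 0 of 46 genes were called and the median log2 fold change was 0.16.

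In the lists not yet described, 0 genes were called. The medians of the log2 fold change were -0.26 for DNA repair (47 tested), -0.21 for the proteasome (35), -0.16 for the cell cycle (60), -0.15 for the spliceosome (51), 0.05 for histone methylation (37), 0.15 for ribosome biogenesis (63) and for cholesterol and lipid genes (27), 0.30 for histone acetylation (34) and 0.43 for p53 targets (22). The medians were 0.25 for stress genes (45 tested) and 0.21 for genes imprinted through H3K27me3 (7). Members named for their level, which were Ccnb1 (cyclin B1), Npm1 (nucleophosmin), Suz12 and Eed (Polycomb subunits), Prdx2 (a peroxiredoxin) and Rrm2b (a p53-induced ribonucleotide reductase subunit), had log2 fold changes of -1.06, -1.60, -0.25, -0.82, 0.99 and -1.29. None of them passed the test at an adjusted p (limma) of 0.287, 0.124, 0.796, 0.453, 0.227 and 0.255. Bmp7, a growth factor imprinted in this way, was listed at 0 in all 3 in vivo embryos and in 2 NTC embryos, and at 1.37 to 13.9 RPKM in the other 4 NT embryos (adjusted p = 0.466, limma).

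Markers of the donor cells were followed as 2 lists. Of 35 autosomal cumulus markers 12 were tested, 0 were called, and 13 were at 0 in all 9 libraries. Among the markers most abundant in the cumulus cells, Serpine2 (701 RPKM in CCs) had 25.5 to 32.6 RPKM in vivo and 2.54 to 27.4 in NT, Rgcc (1360 RPKM in CCs) 0.702 to 5.02 and 0 to 26.1, and Akr1cl (679 RPKM in CCs) 1.81 to 5.39 and 1.38 to 6.73. Cyp11a1 (458 RPKM in CCs), the first enzyme of steroid synthesis, was at 0 in all libraries but 1 (0.348 RPKM). Gja1 (455 RPKM in CCs), a gap junction protein, was at 0 to 0.0232 RPKM in vivo, 1.58 to 3.44 in NTC and 0.026 to 4.91 in NTM. The summed level was 51.9 to 63.9 RPKM in vivo, 59.5 to 87.1 in NTC and 17.5 to 71.3 in NTM. Of 44 fibroblast markers 10 were tested, 0 were called, and 11 were at 0 in all 9 libraries, among them the collagens Col1a1 (2820 RPKM in MEFs) and Col3a1 (1820 RPKM in MEFs). Mmp2 (249 RPKM in MEFs) had 10.4 to 22.1 RPKM in vivo and 11.5 to 26.2 in NT. Some abundant markers reached higher values in NT. Lgals1 (1380 RPKM in MEFs) had 0 to 1.89 RPKM in vivo and 0.418 to 10.3 in NT. Acta2 (976 RPKM in MEFs) was at 0 in vivo and at 0 to 8.48 in NT, and Sparc (1130) at 0 to 0.018 and 0 to 1.2. Others did not: Postn (915 RPKM in MEFs) had 0.346 to 11.1 RPKM in vivo and 0 to 5.65 in NT, and Dcn (3230) 0 to 1.42 and 0. The fibroblast list had summed levels of 30.9 to 41.0 RPKM in vivo, 36.4 to 38.6 in NTC and 41.5 to 55.1 in NTM. The median log2 fold change was 0.50 for the cumulus list and 0.43 for the fibroblast list. Of the 17 higher genes, 12 had a mean above 1 RPKM in CCs or MEFs and 8 a mean above 10 RPKM. Of the 17 lower genes these numbers were 3 and 1. The share of all genes tested above these levels was not counted, so these numbers are a description. The part of RNA carried over from donor cells in these results was not tested.

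The same contrast in the 1-cell and 4-cell embryos, which are other libraries, shows which of the 34 genes differed before and after. At the 1-cell stage 0.980% of the autosomal genes were called and at the 4-cell stage 25.7%. Of 16 higher genes tested at the 1-cell stage, 15 had the same sign and 6 were called higher (Bfsp1, Pnpla3, Mamdc2, Vmn2r-ps111, Gm9825 and Ugcg). Over all genes tested at both stages the signs were the same in 52.5%, and 1.06% were called at the 1-cell stage in either direction. The calls at the 1-cell stage were 85 higher and 16 lower. Of 12 lower genes tested, 9 had the same sign and 0 were called. At the 4-cell stage 7 of 16 higher genes were called higher (Bfsp1, Gm13394, Prcc, Gapdh, Gm43042, Cd24a and Hexdc) and 2 of 7 lower genes were called lower (Ypel5 and Zscan4f). Of all genes tested at both the 2-cell and the 4-cell stage, 24.4% were called at the 4-cell stage in either direction. At that stage the calls were 491 higher and 2292 lower, and with median-ratio scaling 755 and 1496.

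Levels through these stages differed between genes. Bfsp1 was already high in 1-cell NT embryos (63.0 ± 12.2 RPKM in NTC and 20.7 ± 6.31 in NTM, SD, n = 3 each) and at 0.105 ± 0.118 RPKM in vivo. Pnpla3 was far higher at the 1-cell than at the 2-cell stage in NT embryos, with 224 ± 16.9 RPKM in NTC and 150 ± 18.9 in NTM against 0.390 ± 0.150 in vivo (log2 fold change 7.05, adjusted p = 2.80e-07, limma). Neither gene was above 1 RPKM in donor cells on average. Cd24a, by contrast, was at 0 in all 9 1-cell libraries and above 10 RPKM in all 6 NT embryos of the 2-cell stage, and Gapdh was not called at the 1-cell stage (44.5 ± 39.7 RPKM in vivo, 20.1 ± 6.03 in NTC and 9.39 ± 1.49 in NTM).

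Among the lower genes, 13 of 17 had a higher in vivo mean at the 2-cell than at the 1-cell stage. The same held for 11 of 17 higher genes. Lower genes were called in part for high in vivo 2-cell values, which favours this outcome, so the count is a description. Duxf3 had 0.00681 ± 0.0118 RPKM in vivo at the 1-cell stage and 0.0188 ± 0.0326 at the 4-cell stage (SD, n = 3), so its in vivo level was seen at the 2-cell stage alone among these 3 stages. Zscan4d was present in 1-cell NT embryos, with 5.61 ± 3.17 RPKM in NTC and 5.87 ± 5.65 in NTM against 1.92 ± 0.114 in vivo, and at the 4-cell stage it was at 0 in all NT embryos and at 1.22 ± 1.15 RPKM in vivo. The mean of Obox2 went with stage in every embryo type from 973 ± 92.1 RPKM in vivo, 405 ± 75.6 in NTC and 388 ± 291 in NTM at the 1-cell stage to at most 2.77 RPKM at the 4-cell stage. Ypel5 was lower in NT embryos at the 1-cell (log2 fold change -1.49, adjusted p = 0.108, limma), 2-cell (-1.90) and 4-cell stage (-2.34, adjusted p = 0.00353, limma).

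**Figure D4:**
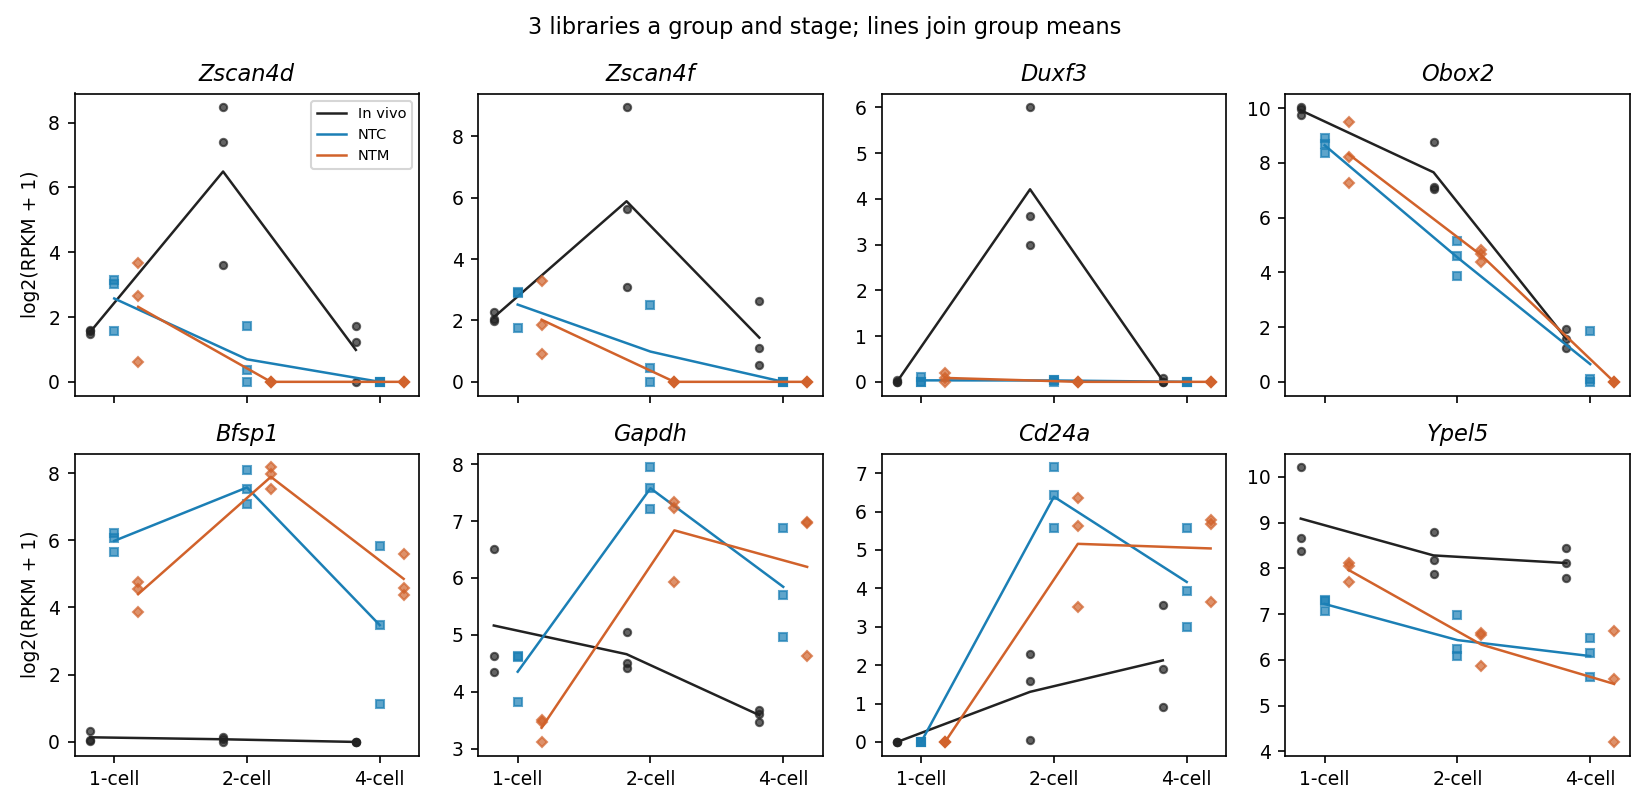
Log2(RPKM + 1) of 8 called genes at the 1-cell, 2-cell and 4-cell stages in in vivo (black), NTC (blue) and NTM (orange) embryos, 3 libraries a group, with lines through the group means and a separate vertical axis for each gene. Duxf3, Zscan4d and Zscan4f have their highest levels in 2-cell in vivo embryos, and Bfsp1 is above 1 RPKM in every NT embryo and at most 0.240 RPKM in vivo.

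The depth of the 9 libraries was 5.29 to 19.6 M (megareads) on genes, as recovered from the steps of the RPKM values, and 3 reads on a transcript of 2000 nt weigh 0.0765 to 0.283 RPKM. NTC replicate 3 was the shallowest. Reads on genes were 16.3 ± 2.37 M in vivo and 12.5 ± 4.57 M in NT (SD, n = 3 and 6, exact permutation p = 0.226, two-sided; without NTM replicate 1, p = 0.0357), and the genes above 0 were 12500 ± 1969 and 12174 ± 1214 (exact permutation p = 0.786). Mitochondrial genes held 21.9 ± 5.19% of the summed RPKM in vivo and 24.9 ± 8.37% in NT (exact permutation p = 0.595), and the 10 highest genes 27.7 ± 4.55% and 38.6 ± 8.05% (exact permutation p = 0.0714). The smallest p that the 84 arrangements allow is 0.0119. Across genes, libraries correlated (log2 values) at 0.717 to 0.832 within in vivo, 0.799 to 0.839 within NTC, 0.702 to 0.781 within NTM and 0.659 to 0.828 between NT and in vivo, where genes are not independent replicates. The p-values measure the spread between these single embryos.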

How the data were processed

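The 9 libraries of 2-cell embryos, each from a single embryo, were read from 1 table of RPKM values (reads scaled to transcript length and library size) that the authors deposited for the whole series, with columns assigned to samples by their titles. RNA was amplified by a tailing method without molecular identifiers, so values include amplification error. The SE and SD come from differences between libraries, so they hold the spread between embryos together with amplification and counting error. The floors are set in reads and cover counting error only. The submitters' processing notes list Bowtie 0.12.2, while the study's methods name TopHat and HTSeq, and which of them made the table is not settled. How reads on near-identical copies and on opposite strands were counted is not given in the sources used here.

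From the deposited RPKM, log2(RPKM + 1) was fitted with limma 3.58.1 (R 4.3.3, trended eBayes) over genes averaging 0.5 RPKM or more in these libraries, with no covariate and Benjamini-Hochberg adjustment over all genes tested. A gene was called at an adjusted p under 0.05 and an absolute log2 fold change of at least 1. Fold changes on this scale understate those of low genes. The fit was tested on simulated data. Autosomes were taken from GENCODE M21 (GRCm38), which held 27056 of the 27238 gene identifiers. Depth was recovered from the steps of low RPKM values (73.5 to 75.0% of values came out as whole reads, within 0.05). Library measures were compared with exact permutation tests. Windows of 100 bases shared between transcripts were counted in the same annotation, and promoters came from RefSeq.

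The members and lists were chosen with earlier results of these data known. Genes were named as the 12 called genes with the largest change in each direction, up to 4 called or abundant members of each list, and Eif1ad, Eif3j2 and Eif1ax. Gm43042, Hexdc, Spop, Ugcg, Gm42662, Defb8, Ypel5, Gm10436 and the other genes of the lists given with values were chosen after their values were seen. Alternatives covered the pseudocount, the filter, scaling, library weights, a replicate block, 2 NT groups, each NT type alone, all 20 groups and each library left out. Scaling on nuclear genes alone was added after seeing the data.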

Additional observations from a re-analysis of the deposited data

Results flagged for a closer look

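Single NT embryos stood apart from the other 5 by Dixon's criterion in 6 named genes, a criterion that chance meets in about 1 of 20 groups. NTC replicate 1 had the lowest Hmga1b (6.46 RPKM) and the highest Zscan4d (2.29 RPKM) and Zscan4f (4.63 RPKM) of the 6 NT embryos. NTC replicate 2 had the highest Tex21 (2.98 RPKM). NTM replicate 3 had the lowest Mmp2, a matrix metalloproteinase (11.5 RPKM), and NTM replicate 2 the lowest Gapdh (60.0 RPKM).

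On the X chromosome, outside the autosomes compared, 2 genes were called, both higher in NT embryos. Tceal8 had 1.87, 0.534 and 0.496 RPKM in vivo and 11.6 to 80.6 RPKM in NT, with a log2 fold change of 3.84 (adjusted p = 0.0173, limma). The pseudogene Gm8822 had 0.183, 0.0307 and 0.129 RPKM in vivo and 6.54 to 18.1 RPKM in NT, with a log2 fold change of 3.62 (adjusted p = 0.0102, limma).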

How the results depend on the processing

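The 34 calls of the 2-cell comparison numbered 7 without a filter on low values, 55 with library weights, 1002 in a fit over all 20 groups, 17 with NTC and 14 with NTM embryos alone, and 9 to 55 when 1 library was left out. None of the 34 genes changed direction under any alternative run, and 8 were called in all 9 fits without 1 library (Bfsp1, Gm13394, Vmn2r-ps111, Gm9825, Mamdc2, Gm43042, Gm8711 and Gm6489). Median-ratio scaling gave 32 calls and ended those of Gm17163, Oas1d, Ugcg, Gm10436, Gm42662, Ypel5 and Hexdc. The comparison of NTM with NTC gave 494 calls in the fit over 20 groups and 0 to 38 with 1 library left out. The calls at the 1-cell stage (0.980% of genes) numbered 44 without a filter, 715 with weights, 746 over 20 groups, 397 with NTC and NTM as 2 groups, and 32 to 172 with 1 library left out. At the 4-cell stage, scaling on nuclear genes, chosen after seeing the data, gave 966 higher and 1265 lower calls. The difference in reads on genes was -5.31 to -2.44 M with 1 library left out. The cause of these changes was not tested.

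With the replicate number as a block there were 16 calls at the 2-cell stage and 54 at the 1-cell stage. Deviations of same-numbered libraries correlated at -0.152 to 0.106, and not every library correlated best with its own number, so they share only a number. Precision is limited by 3 embryos a group and by a depth at which 3 reads weigh up to 0.283 RPKM.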
